A study of Mus musculus with 2 samples.

Results

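A-type potassium current is carried in the cell body and dendrites of pyramidal neurons by channels of the Kv4 family together with their auxiliary subunits. The genes described here are the 9 that encode them: 3 pore subunits (Kcnd1, Kcnd2 and Kcnd3, for Kv4.1, Kv4.2 and Kv4.3), 4 KChIPs (Kcnip1 to Kcnip4) and the DPP-like proteins DPP6 and DPP10. They were chosen by name, 9 of 43346 genes in the tables, and all 9 were matched. The material was 2 RNA-seq libraries from layer 5 of the mouse cortex, where large projection neurons sit, each from an area cut out by laser capture. Both areas came from an adult wild-type male C57Bl6 mouse aged 8 months, of strain B6NCrl in the labels, and each measured 8000 square microns, with 50 cells given as the starting amount. Biological replicate numbers 1 and 2 stand beside the same donor name in the labels, so the libraries form 1 group from 1 animal.

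Kv4 channels open below the firing threshold and inactivate within a short time, which delays spikes and dampens signals that travel back into the dendrites. KChIPs are calcium-binding proteins with EF hands that hold the cytoplasmic N-terminus of Kv4, bring the channel to the surface and speed its recovery from inactivation. DPP6 and DPP10 are membrane proteins of the dipeptidyl peptidase family without enzyme activity, which bind the channel beside its voltage sensor and speed its gating.

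Totals were 26059117 estimated reads in replicate 1 and 28276843 in replicate 2, of which the 9 genes held 0.0523% and 0.0544%. Spike-in RNA held 7.19% of reads in replicate 1 and 7.94% in replicate 2. All 10 layer 5 markers lay at 1 TPM or more in both areas, as did all 6 markers of excitatory neurons, 4 of 5 markers of layer 2/3, 1 of 4 of layer 4 and 3 of 5 of layer 6. Over all protein-coding genes, 51.5% lay at 1 TPM or more in both areas. Of the layer 5 markers 3 were past 2-fold, Crym and Parm1 higher in replicate 1 and Rbp4 higher in replicate 2. The share past 2-fold was 10.3% over all protein-coding genes at a mean of at least 1 TPM. The areas also held RNA of interneurons, which differed between them: summed markers of parvalbumin interneurons had 1201 TPM in replicate 1, against 188 TPM in replicate 2, and those of somatostatin interneurons 196 and 2963 TPM. Microglial markers summed to 240 TPM in replicate 1 and 71.6 TPM in replicate 2, oligodendrocyte markers to 539 and 903 TPM, and erythrocyte genes to 16.0 and 586 TPM. In such bulk RNA, fewer cells of a type and less RNA per cell cannot be told apart.

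All 9 genes were detected at 1 TPM or more in both areas, as were 51.5% of 21474 protein-coding genes. TPM is a level per length, so that it can be set side by side between genes. In order of the mean, the levels were Kcnip4, Dpp10, Dpp6, Kcnip2, Kcnd2, Kcnip3, Kcnip1, Kcnd3 and Kcnd1. The ranges of the 2 areas did not overlap between Kcnip4 and Dpp10, between Dpp10 and Dpp6, or between Kcnd2 and Kcnip3. The ranges of all other neighbours in this order overlapped: Dpp6 with Kcnip2, Kcnip2 with Kcnd2, Kcnip3 with Kcnip1, Kcnip1 with Kcnd3, and Kcnd3 with Kcnd1. Dpp6 and Kcnd2, which are not neighbours, did not overlap, at 22.5 TPM or more in both areas for Dpp6 and at most 21.7 TPM for Kcnd2. The first 6 genes held the same positions in both areas, while Kcnd1 was in position 7 in replicate 1 and in position 9 in replicate 2. Among protein-coding genes, 1901 had a higher mean TPM than Kcnip4 and 8800 a higher mean than Kcnd1.

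**Figure D1:**
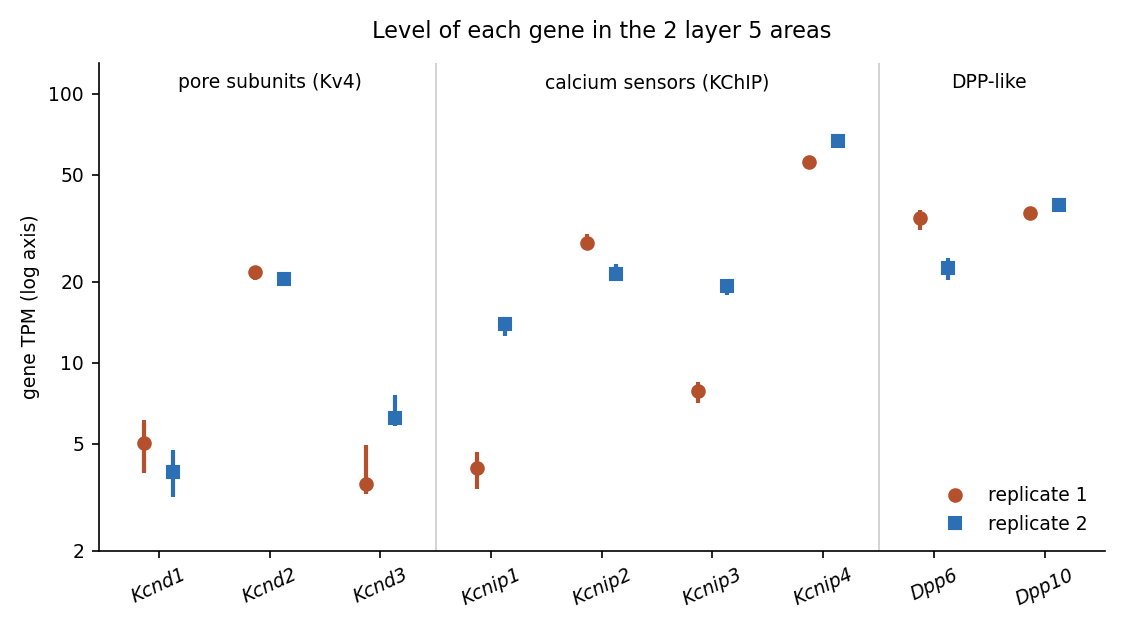
Level of each gene as TPM on a log axis, replicate 1 as a circle on the left and replicate 2 as a square on the right, with the deposited credible interval of each library as a line. Kcnip4 is highest at 56.0 and 67.0 TPM, and the widest gaps between the areas are those of Kcnip1 and Kcnip3.

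Kcnd2 was the leading pore subunit. It encodes Kv4.2, the principal A-type pore of dendrites in cortical and hippocampal pyramidal cells, and lies on mm10 chr6:21215503-21729805, plus strand (ENSMUSG00000060882.5). Kcnd2 had 21.7 TPM in replicate 1 and 20.5 TPM in replicate 2, with deposited credible intervals of 20.3 to 22.0 and 19.2 to 20.9 TPM. These intervals overlapped, and the mean was 21.1 ± 0.82 TPM (SD, n = 2). The log2 ratio of replicate 1 over replicate 2, on the log2(TPM + 1) scale used throughout, was 0.076. Estimated reads of Kcnd2 numbered 2358 in replicate 1 and 2309 in replicate 2.

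Kcnd3 encodes Kv4.3, an A-type pore found in many interneurons as well as in pyramidal cells. Kcnd3 (chr3:105452330-105674002, plus strand; ENSMUSG00000040896.12) had 3.53 TPM in replicate 1 and 6.21 TPM in replicate 2, a log2 ratio of -0.67 and a mean of 4.87 ± 1.90 TPM (SD, n = 2). Its deposited credible intervals, 3.26 to 4.94 and 5.81 to 7.56 TPM, did not overlap, and its reads per total in replicate 1 were 0.597 times those in replicate 2 (exact 95% interval 0.536 to 0.664). That interval covers counting error only, because PCR copies cannot be told from separate molecules here. Exons of Kcnd3 overlap those of the antisense gene Kcnd3os, listed at 2.02 TPM in replicate 1 and 3.31 TPM in replicate 2. The strand setting of the counting was not given in the sources used here, so reads of the overlap cannot be told apart.

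Kcnd1, which encodes Kv4.1, the least abundant Kv4 in most brain regions, lies at chrX:7822289-7838280 on the plus strand (ENSMUSG00000009731.4). Kcnd1 had 5.01 TPM in replicate 1 and 3.92 TPM in replicate 2, with overlapping intervals of 3.88 to 6.10 and 3.16 to 4.74 TPM and a mean of 4.47 ± 0.77 TPM (SD, n = 2). Its log2 ratio was 0.29 on TPM, but as CPM, reads scaled to the library total and not per length, it had 11.9 in replicate 1 and 11.8 in replicate 2. Its 2 transcripts lay in opposite orders between the areas, each with overlapping intervals. Kcnd1-201, which encodes the channel, had 2.46 TPM in replicate 1 and 2.74 TPM in replicate 2. Kcnd1-202, a non-coding transcript of 751 bases that all lie inside the first exon of Kcnd1-201, had 2.56 and 1.18 TPM from only 35.9 and 17.1 estimated reads. Kcnd1-202 thus held 51.0% of the gene's expression in replicate 1 and 30.1% in replicate 2. On the coding transcript alone the log2 ratio of Kcnd1 was -0.11, of the opposite sign.

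The 3 pore subunits together had 30.2 TPM in replicate 1 and 30.7 TPM in replicate 2, a mean of 30.4 ± 0.30 TPM (SD, n = 2). Kcnd2 made up 71.7% of that sum in replicate 1 and 67.0% in replicate 2. Kcnd3 made up 11.7% and 20.3%, and Kcnd1 16.6% and 12.8%. The summed level therefore differed less between the areas than its make-up did, with Kcnd3 and Kcnd1 in opposite order in the 2 areas. Protein-coding transcripts alone, which summed to 27.7 TPM in replicate 1 and 29.5 TPM in replicate 2, did not keep this opposite order. Kcnd3 then made up 12.8% in replicate 1 and 21.1% in replicate 2, and Kcnd1 8.89% and 9.29%. As CPM too Kcnd3 lay above Kcnd1 in both areas, at 20.6 against 11.9 in replicate 1 and 34.6 against 11.8 in replicate 2. CPM is not per length, so it does not rank these genes by level. The listed length was 7169 bases for Kcnd3 in both areas, against 2973 bases in replicate 1 and 3920 bases in replicate 2 for Kcnd1.

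**Figure D2:**
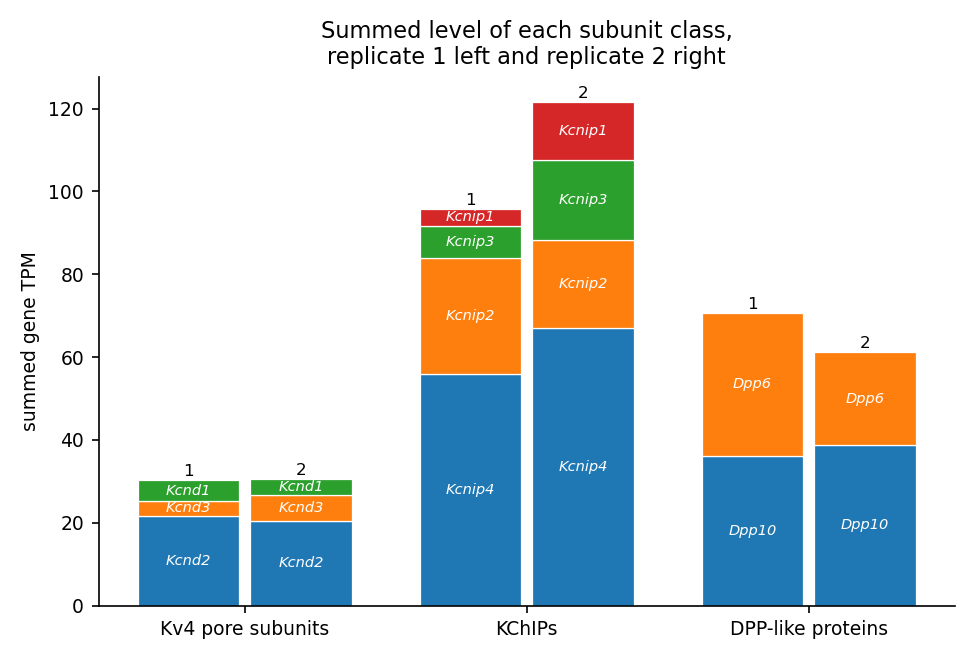
Summed TPM of each subunit class, replicate 1 left and replicate 2 right, divided by gene. The pore subunits sum to 30.2 and 30.7 TPM, the KChIPs to 95.7 and 122 TPM and the DPP-like genes to 70.6 and 61.2 TPM.

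KChIP genes as a class had 95.7 TPM in replicate 1 and 122 TPM in replicate 2, a mean of 109 ± 18.3 TPM (SD, n = 2). Set against the pore subunits this was a ratio of 3.17 in replicate 1 and 3.97 in replicate 2. Kcnip4 led the class in both areas, with 58.5% of its sum in replicate 1 and 55.1% in replicate 2. Kcnip2 came after it in both areas, with 29.1% and 17.6%. Kcnip3 held 8.17% and 15.9%, and Kcnip1 4.23% and 11.5%. The KChIP sum was thus dominated by the same gene in both areas. Kcnip3 and Kcnip1 took a larger part in replicate 2, and Kcnip2 and Kcnip4 a smaller one.

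Kcnip4 encodes KChIP4, whose splice forms differ in their N-termini. It lies at chr5:48389502-49524907 on the minus strand (ENSMUSG00000029088.12). Kcnip4 was the most abundant of the 9 genes and had 56.0 TPM (53.0 to 57.8) in replicate 1, against 67.0 TPM (63.5 to 68.7) in replicate 2. The bracketed credible intervals did not overlap, while the log2 ratio was -0.25 and the mean 61.5 ± 7.76 TPM (SD, n = 2). Exons of Kcnip4 overlap those of 5730480H06Rik on the other strand, listed at 15.3 TPM in replicate 1 and 9.09 TPM in replicate 2. Here too reads of the overlap cannot be told apart.

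Kcnip2 encodes KChIP2, best known as the KChIP of heart muscle and also a partner of Kv4.2 in cortical neurons. Kcnip2 (chr19:45791839-45816061, minus strand; ENSMUSG00000025221.11) had 27.8 TPM (26.5 to 30.0) in replicate 1 and 21.4 TPM (20.3 to 23.3) in replicate 2. It was the only KChIP gene with a higher level in replicate 1, at a log2 ratio of 0.37 and a mean of 24.6 ± 4.57 TPM (SD, n = 2). Its reads per total were 1.36 times as many in replicate 1 as in replicate 2 (exact 95% interval 1.25 to 1.47, counting error only).

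Kcnip3 encodes KChIP3, also named DREAM or calsenilin, which besides binding Kv4 represses transcription. Kcnip3 (chr2:127456498-127522094, minus strand; ENSMUSG00000079056.8) had 7.82 TPM (7.05 to 8.51) in replicate 1 and 19.3 TPM (17.9 to 20.1) in replicate 2. The mean was 13.5 ± 8.10 TPM (SD, n = 2). Its log2 ratio was -1.20, and its reads per total were 2.35 times as many in replicate 2 as in replicate 1 (exact 95% interval 2.10 to 2.63, counting error only). It was 1 of 2 genes of the 9 past 2-fold, as were 10.3% of all 11841 protein-coding genes at a mean of at least 1 TPM.

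Kcnip1, the other one, encodes KChIP1, the KChIP best known from GABAergic interneurons. Kcnip1 (chr11:33629339-33993152, minus strand; ENSMUSG00000053519.11) had 4.05 TPM (3.38 to 4.67) in replicate 1 and 13.9 TPM (12.5 to 14.9) in replicate 2, from 145 and 534 estimated reads, and a mean of 8.99 ± 6.99 TPM (SD, n = 2). The log2 ratio of -1.56 was the largest in size of the 9, and reads per total were 3.39 times as many in replicate 2 as in replicate 1 (exact 95% interval 2.82 to 4.11, counting error only). The summed level of somatostatin interneuron markers was also higher in replicate 2, as given above. Of that list of 4 genes, 2 were past 2-fold, both higher in replicate 2: Sst had 194 TPM in replicate 1, against 2859 TPM in replicate 2, and Crh had 0.04 and 101 TPM. Elfn1 had 0.96 TPM in replicate 1, against 1.64 TPM in replicate 2, and Nos1 had 0.58 and 0.26 TPM. Of the 4 parvalbumin interneuron markers all were past 2-fold and higher in replicate 1. Of the Vip and Lamp5 type list of 5 genes, 3 were past 2-fold and higher in replicate 2: Vip at 0.03 TPM in replicate 1, against 1.95 TPM in replicate 2, Reln with 6.36 and 30.3 TPM, and Npy with 27.2 and 61.5 TPM. Calb2 of that list had 2.16 TPM in replicate 1, against 0.61 TPM in replicate 2, and Cck had 2355 and 2530 TPM. The part of these cells, and of the oligodendrocytes and blood cells given above, in the differences of Kcnip1, Kcnip3 and Kcnd3 was not tested.

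The DPP-like genes were close to each other in replicate 1 and apart in replicate 2. Dpp10 (chr1:123321471-124045559, minus strand; ENSMUSG00000036815.12) had 36.2 TPM (34.0 to 37.5) in replicate 1 and 38.7 TPM (36.7 to 39.6) in replicate 2, with overlapping intervals, a log2 ratio of -0.095 and a mean of 37.5 ± 1.80 TPM (SD, n = 2). Dpp6 (chr5:26817203-27727505, plus strand; ENSMUSG00000061576.11) had 34.4 TPM (31.1 to 36.9) in replicate 1 and 22.5 TPM (20.4 to 24.6) in replicate 2, a mean of 28.5 ± 8.45 TPM (SD, n = 2). Its log2 ratio of 0.59 was the largest among genes higher in replicate 1. DPP-like genes summed to 70.6 TPM in replicate 1 and 61.2 TPM in replicate 2, which was 2.34 and 2.00 times the pore subunit sum. Dpp6 made up 48.8% of that sum in replicate 1 and 36.7% in replicate 2.

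How far these differences stand out was read against the 11841 protein-coding genes at a mean of at least 1 TPM. The 10.3% of them past 2-fold were divided into 5.02% higher in replicate 1 and 5.33% higher in replicate 2. Of the 9 genes here 2 were past 2-fold, Kcnip1 and Kcnip3, both higher in replicate 2, and 7 were not. Among the 6902 genes within the range of levels of these 9, 7.71% were past 2-fold, and the median size of the log2 ratio was 0.32, against 0.37 for the 9. The median log2 ratio over all 11841 genes was -0.046. Deposited credible intervals did not overlap for 6 of the 9 genes, and for 59.6% of all genes, so an interval gap is usual between these areas. With 2 libraries in 1 group no test of the difference is possible, as a two-sided sign-flip test could not go below p = 0.5 even in an exact permutation.

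**Figure D3:**
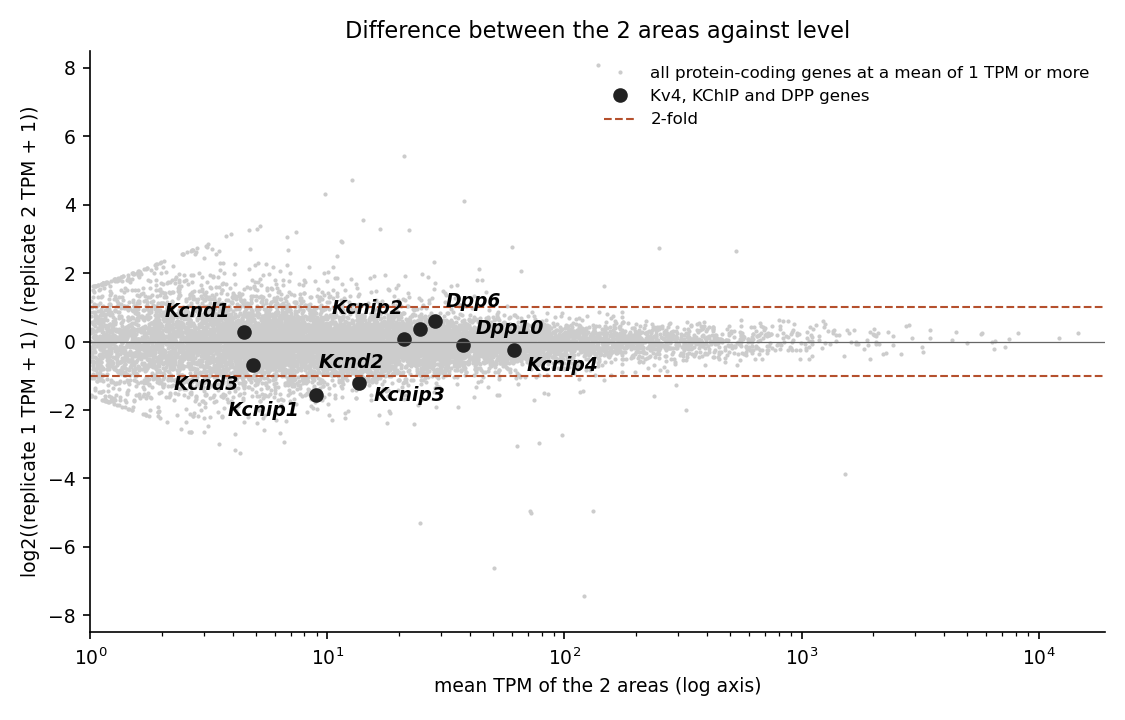
Log2 ratio of replicate 1 over replicate 2 against mean TPM on a log axis for all protein-coding genes with a mean of 1 TPM or above (grey) and the 9 genes (black), with dashed lines at 2-fold. Kcnip3 and Kcnip1 lie below the lower line at -1.20 and -1.56, and the other 7 lie between the lines.

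The transcript tables gave each transcript's percent of its gene, and 8 of the 9 genes were listed with more than 1 transcript. They listed 47 transcripts in all, 30 of them with reads in at least 1 area. In 3 of the 8 genes, Kcnd1, Kcnip1 and Kcnip2, another transcript led in each area, as it did in 20.0% of 8736 protein-coding genes with more than 1 transcript and a mean of at least 1 TPM. In Kcnip1 alone a share changed by at least 50 percentage points, as it did in 7.54% of those genes. By share of reads, which is not per length, the leading transcript differed in 2 of the 8 genes. Kcnd1-201 then led Kcnd1 in both areas.

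**Figure D4:**
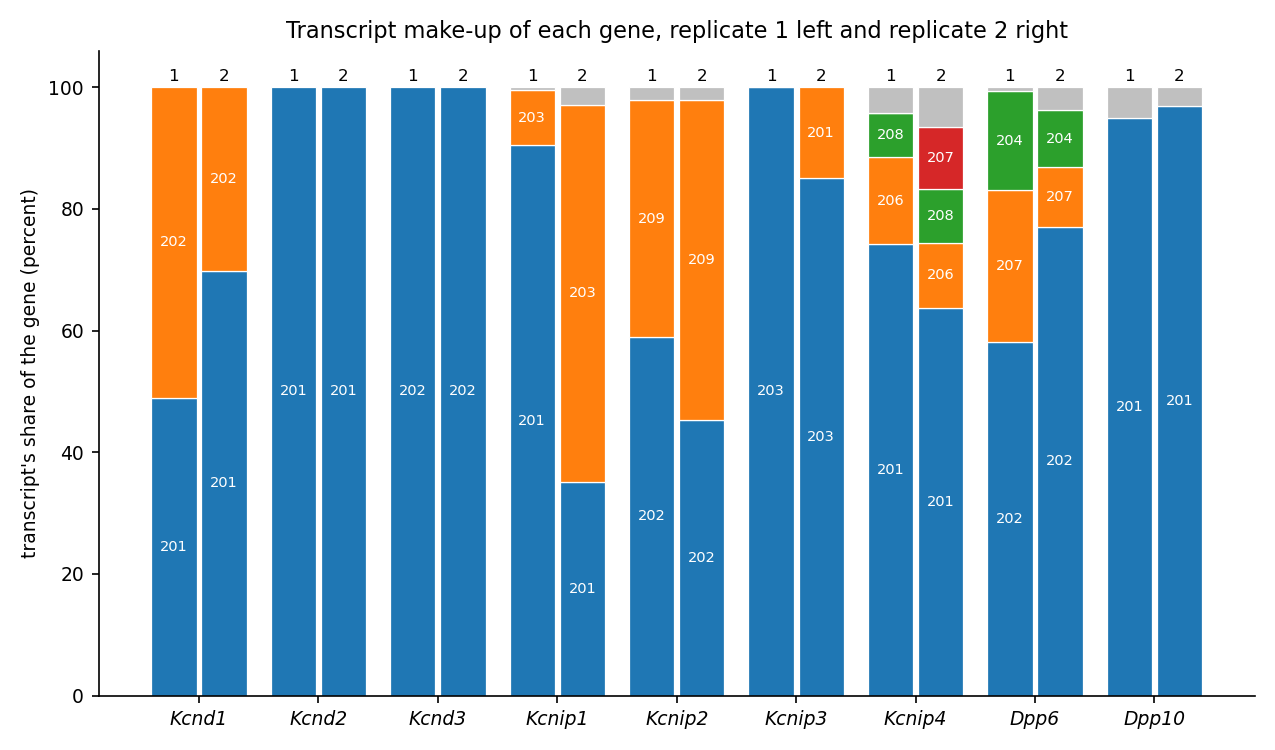
Percent of each gene's expression by transcript, replicate 1 left and replicate 2 right, with transcript numbers in the bars and transcripts under a mean of 5 percent in grey. Kcnip1 changes most, with Kcnip1-203 at 9.02% in replicate 1 and 62.0% in replicate 2.

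The 2 main Kcnip1 transcripts differ in their coding sequence by an exon of 33 bases at chr11:33651540-33651572, minus strand, which adds 11 codons near the N-terminus. Kcnip1-203 (227 codons) holds it and Kcnip1-201 (216 codons) does not. It is shown because this exon marks the transcript in which most of the Kcnip1 difference between the areas was placed. The exon is in capitals, with 15 coding bases on either side in lower case, as spliced in the GENCODE M21 transcripts of GRCm38.
Kcnip1-203 exon: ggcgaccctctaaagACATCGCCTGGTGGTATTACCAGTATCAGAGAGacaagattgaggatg

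Kcnip1-203 had 0.37 TPM (0.0089 to 1.35) in replicate 1 and 8.64 TPM (6.05 to 10.7) in replicate 2, from 13.7 and 335 estimated reads. These intervals did not overlap. Kcnip1-201, the form without the exon, had 3.67 TPM (2.33 to 4.31) in replicate 1 and 4.90 TPM (2.47 to 7.15) in replicate 2, with overlapping intervals. The share of Kcnip1-201 was 90.5% in replicate 1 and 35.2% in replicate 2. Reads of these forms were divided by estimation, and the deposited posterior SD of the Kcnip1-203 count was 14.4 reads in replicate 1 and 45.9 reads in replicate 2.

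Kcnip2 likewise has a form with a further coding exon, of 54 bases at chr19:45796279-45796332, minus strand. It adds 18 codons, so that Kcnip2-209 has 270 codons and Kcnip2-202 has 252. The exon is shown because both forms were abundant and each led in 1 area.
Kcnip2-209 exon: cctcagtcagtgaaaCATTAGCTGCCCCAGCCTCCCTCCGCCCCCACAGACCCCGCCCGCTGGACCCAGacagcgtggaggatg
Kcnip2-202, without the exon, had 16.4 TPM (11.4 to 19.3) in replicate 1 and 9.69 TPM (5.17 to 12.7) in replicate 2. Kcnip2-209 had 10.8 TPM (7.25 to 14.9) and 11.2 TPM (7.83 to 15.1). The intervals of both forms overlapped between the areas, so the change of leading form was within the deposited uncertainty. The share of Kcnip2-209 was 38.9% in replicate 1 and 52.6% in replicate 2.

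Kcnip3 had the same leading form in both areas. Kcnip3-203, with 256 codons, had 7.82 TPM (5.01 to 8.15) in replicate 1 and 16.4 TPM (13.2 to 18.1) in replicate 2, which was 100% and 85.0% of the gene. Kcnip3-201 was listed at 0 TPM in replicate 1, with an interval reaching 2.44 TPM, and at 2.89 TPM (1.04 to 5.63) in replicate 2. By the deposited posterior means Kcnip3-203 held 85.3% in replicate 1 and 82.5% in replicate 2, and Kcnip3-201 12.8% and 16.6%. The transcripts differ by 4 bases at an exon start, chr2:127465975-127465978, minus strand, and by an earlier annotated start codon in Kcnip3-201. The 4 bases are in capitals below, since the division of reads between these forms rests on them.
Kcnip3-203 exon start: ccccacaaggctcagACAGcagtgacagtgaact

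**Figure D5:**
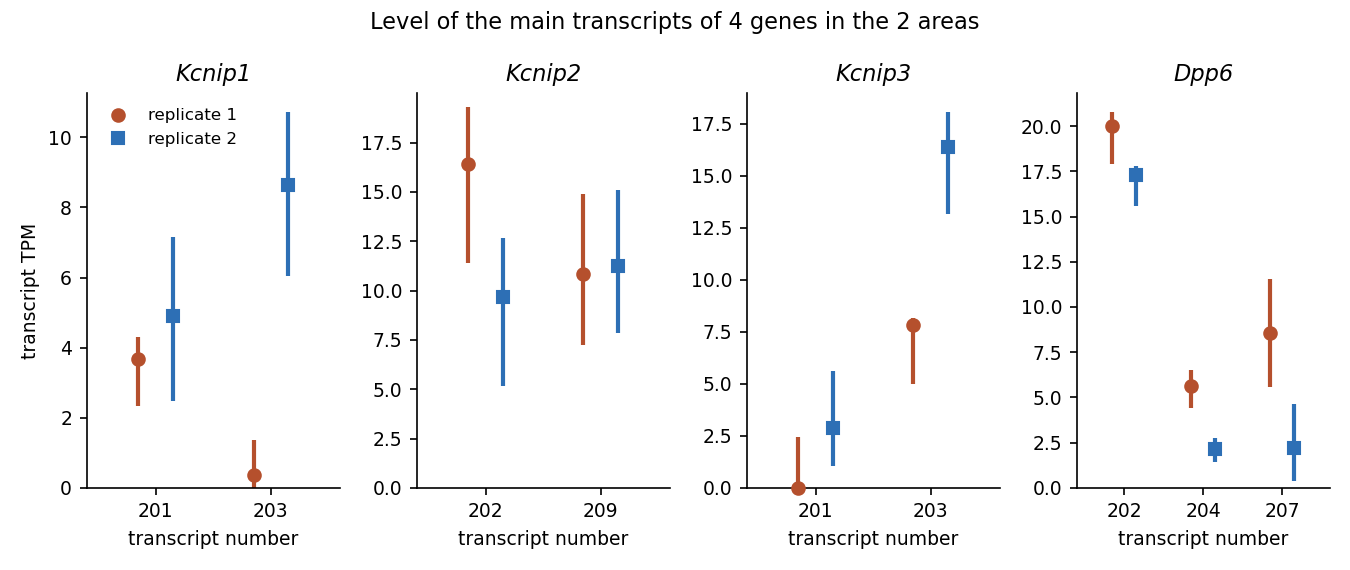
TPM of the main transcripts of Kcnip1, Kcnip2, Kcnip3 and Dpp6, replicate 1 as a circle on the left and replicate 2 as a square on the right, with deposited credible intervals as lines. The intervals do not overlap for Kcnip1-203, Kcnip3-203 and the 3 Dpp6 transcripts, and overlap for the other transcripts drawn.

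Kcnip4 forms differ in their first coding exon, and the coding starts are shown because the N-terminus is what sets KChIP4 forms apart in function. KChIP4a, the form of Kcnip4-208, begins with a hydrophobic stretch known to slow Kv4 inactivation and to keep the channel from the surface. Kcnip4-201 begins at chr5:49524641-49524701, Kcnip4-206 at chr5:49285253-49285340 and Kcnip4-208 at chr5:48889366-48889465, all on the minus strand. Each line gives the coding part of the first coding exon with the start codon in capitals.
Kcnip4-201 start: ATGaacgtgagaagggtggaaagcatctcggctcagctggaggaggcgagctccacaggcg
Kcnip4-206 start: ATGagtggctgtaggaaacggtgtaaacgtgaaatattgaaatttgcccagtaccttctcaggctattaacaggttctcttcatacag
Kcnip4-208 start: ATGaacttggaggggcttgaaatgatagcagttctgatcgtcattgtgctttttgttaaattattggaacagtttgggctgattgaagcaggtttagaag

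Kcnip4-201, of 250 codons, led in both areas. It had 41.6 TPM (36.2 to 42.4) in replicate 1 and 42.7 TPM (36.6 to 46.5) in replicate 2. Its share was 74.2% in replicate 1 and 63.7% in replicate 2. Kcnip4-206 had 8.08 TPM in replicate 1 and 7.24 TPM in replicate 2, or 14.4% and 10.8%. Kcnip4-208 had 4.03 TPM (1.78 to 6.33) in replicate 1 and 5.87 TPM (3.03 to 9.32) in replicate 2, so KChIP4a was a minor form in both areas, at 7.19% and 8.76%. The higher total of Kcnip4 in replicate 2 was placed mostly on Kcnip4-207, which starts as Kcnip4-201 does but lacks its exon of 102 bases at chr5:48509659-48509760. Kcnip4-207 was listed at 0 TPM in replicate 1 and at 6.86 TPM in replicate 2, but its intervals reached 3.39 TPM and from near 0 to 12.6 TPM and overlapped.

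Kcnd2 was listed with 1 transcript, of 630 codons. Kcnd3 reads were all placed on Kcnd3-202, the short form of Kv4.3 with 636 codons, in both areas. Long forms hold a further exon of 57 bases at chr3:105666962-105667018, plus strand, whose 19 residues carry a protein kinase C site of the long channel. That exon is shown because no read was placed on a form that holds it.
Kcnd3-203 exon: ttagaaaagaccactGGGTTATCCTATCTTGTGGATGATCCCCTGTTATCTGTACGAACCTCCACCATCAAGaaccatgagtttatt
Kcnd3-201 and Kcnd3-203, of 655 codons, were listed at 0 TPM in both areas, with intervals that reached 0.084 and 0.062 TPM in replicate 1 and 0.070 and 0.054 TPM in replicate 2. These annotated forms also end early, with last exons of 302 and 453 bases against 4995 bases in Kcnd3-202. Whether reads of a long form with the full last exon were placed on Kcnd3-202 was not tested.

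Dpp6 starts its forms at separate first exons, which give DPP6 different cytoplasmic N-termini with the same membrane and extracellular parts. Their coding starts are shown because the forms changed unequally: Dpp6-202, the form DPP6-S, at chr5:27262305-27262361, and Dpp6-204, the form DPP6-L, at chr5:27049589-27049813, both on the plus strand. The last line shows the exon of 64 bases at chr5:27366807-27366870 that Dpp6-207 has between exons of Dpp6-202, in capitals with 15 bases on either side.
Dpp6-202 start: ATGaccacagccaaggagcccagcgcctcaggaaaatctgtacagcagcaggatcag
Dpp6-204 start: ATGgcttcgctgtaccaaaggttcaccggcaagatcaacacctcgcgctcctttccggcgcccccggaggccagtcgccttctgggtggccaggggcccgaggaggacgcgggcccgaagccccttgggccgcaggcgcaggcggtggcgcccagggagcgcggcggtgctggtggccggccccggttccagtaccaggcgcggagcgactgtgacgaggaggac
Dpp6-207 exon: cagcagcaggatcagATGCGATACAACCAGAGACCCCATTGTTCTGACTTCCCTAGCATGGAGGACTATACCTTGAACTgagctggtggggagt

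Dpp6-202 had 20.0 TPM (17.9 to 20.8) in replicate 1, against 17.3 TPM (15.6 to 17.8) in replicate 2. It led in both areas with 58.2% and 77.0% of the gene. Dpp6-204 had 5.62 TPM (4.43 to 6.53) in replicate 1 and 2.13 TPM (1.43 to 2.77) in replicate 2. Dpp6-207, annotated as a target of nonsense-mediated decay, had 8.57 TPM (5.55 to 11.5) in replicate 1 and 2.20 TPM (0.39 to 4.61) in replicate 2, from 104 and 27.7 estimated reads. Its 64 bases do not divide into whole codons, and a stop codon that begins at their last base ends the reading frame after 40 codons, against 803 in Dpp6-202. All 3 forms were higher in replicate 1, and their intervals did not overlap between the areas. Coding forms made up 75.0% of Dpp6 in replicate 1 and 87.9% in replicate 2, and summed to 25.8 and 19.8 TPM, a log2 ratio of 0.37 in place of 0.59. Dpp10 was nearly all Dpp10-201, of 789 codons, with 94.9% of the gene in replicate 1 and 96.9% in replicate 2.

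Genes that act with or beside the Kv4 complex were read from 6 lists of 47 genes in all, every one of which was matched. Of the 47, 37 lay at 1 TPM or more in both areas, against 51.5% of protein-coding genes. Of the 41 at a mean of at least 1 TPM, 6 were past 2-fold, 3 in each direction, against 10.3% of all genes. Among them were Hpcal1 and Pdyn, higher in replicate 1, and Kcnc4 and Fap, higher in replicate 2.

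Among 6 other genes of A-type or fast inactivating channels, the beta subunits of Kv1 channels led. Kcnab3 had 48.3 TPM in replicate 1 and 41.5 TPM in replicate 2, Kcnab2 had 49.0 and 38.6 TPM, and Kcnab1 had 46.1 and 36.0 TPM. Kcnc4, the Kv3.4 pore that gives A-type current in axons, had 3.48 TPM in replicate 1 and 9.81 TPM in replicate 2. Its log2 ratio of -1.27 was past 2-fold, and the part of the interneurons given above in this value was not tested.

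Of 16 genes of modulatory and scaffold proteins, 10 were at 1 TPM or more in both areas. The scaffold gene Dlg1 had 39.0 TPM in replicate 1, against 35.2 TPM in replicate 2, and Fmr1, whose product binds Kcnd2 mRNA, had 28.6 and 28.8 TPM. Kcne1, Kcne2, Kcne3 and Kcne4, which encode small auxiliary subunits of potassium channels, had 0 reads in either library. The upper limit of such a count is 3 reads, which is 0.115 CPM in replicate 1 and 0.106 CPM in replicate 2 when counting error alone is considered.

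Each of 9 kinase and phosphatase genes was at 1 TPM or more in both areas and none was past 2-fold. The calcineurin subunit Ppp3ca had 602 TPM in replicate 1, against 508 TPM in replicate 2. Camk2a had 155 TPM in replicate 1, against 194 TPM in replicate 2, and Camk2b 134 and 129 TPM. All 3 lay above every Kv4, KChIP and DPP gene in both areas.

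Of 7 relatives of the KChIPs among the neuronal calcium sensors, 5 lay above every KChIP gene in both areas. Vsnl1 (visinin-like 1) had 567 TPM in replicate 1 and 634 TPM in replicate 2, Hpca (hippocalcin) 233 and 351 TPM, and Ncald (neurocalcin) 226 and 305 TPM. Hpcal4 had 212 TPM in replicate 1, against 183 TPM in replicate 2, and Hpcal1 had 25.3 and 5.99 TPM, a log2 ratio of 1.91. Rcvrn, the recoverin of photoreceptors, was at 0.20 TPM in replicate 1 and 0 TPM in replicate 2.

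Relatives of DPP6 and DPP10 that do have peptidase activity were at lower levels than either. Dpp9 had 13.7 TPM in replicate 1 and 14.8 TPM in replicate 2, Dpp8 12.3 and 15.2 TPM, and Dpp7 9.78 and 12.6 TPM. Fap, the fibroblast activation protein, had 0.66 TPM in replicate 1 and 6.53 TPM in replicate 2, a log2 ratio of -2.18. Of 4 partners and targets of KChIP3, Psen2 had 11.8 TPM in replicate 1 and 12.1 TPM in replicate 2. Fos, whose transcription KChIP3 is known to repress, had 3.98 TPM in replicate 1 and 7.20 TPM in replicate 2. Pdyn, the prodynorphin gene and the best known target of that repression, had 2.21 TPM in replicate 1, where Kcnip3 was lower, and 0.08 TPM in replicate 2, a log2 ratio of 1.57. These are values of 1 library on each side, and no relation between the genes was tested.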

How the data were processed

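RNA was measured in 2 libraries of 1 group, replicates 1 and 2, with a protocol of the Smart-seq kind according to the labels. The deposited tables gave an expected count per gene and transcript, that is, reads assigned by estimation and not always whole. They also gave TPM, scaled by the authors over every feature, which includes spike-ins and mitochondrial genes, with a posterior mean, a posterior SD of the count and credible bounds whose level was not given in the sources used here. Transcript tables gave each transcript's percent of its gene (IsoPct), deposited by the authors. The assembly was mm10 and the annotation M4, per the deposited text files. The sources used here give no program, aligner or strand setting.

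Symbols, transcript names and classes, coordinates and sequences came from GENCODE M21 of GRCm38, matched by identifier without version. Annotated lengths of some Kcnip4 transcripts differ between the releases. Rows that name no gene, 26248 of them, held 20.3 counts in replicate 1 and 5 in replicate 2. To see whether the files were copies of 1 library, counts of 14073 genes summing to 50 or more were compared, which gave a chi-square of 68.5 for each degree of freedom. Differences were log2((TPM + 1) of replicate 1 over replicate 2), which makes changes of low genes look smaller, and past 2-fold means a size of at least 1. With 1 library on each side there is no p-value, and SDs are the spread between 2 areas of 1 donor. Count ratios have exact Clopper-Pearson 95% intervals.

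The genes and lists were chosen with earlier results of these data known. The rule for names took all 9 genes, their transcripts at a mean of 10% or more, and from each list the 4 highest genes, any past 2-fold whose mean was 5 TPM or more, and up to 3 under 1 TPM in both areas. Kcne4 and transcripts under 10% were named after their values were seen. Some genes that the rule took are left out of the text. With 2 libraries no gene can be named for a like pattern. Alternatives were a pseudocount of 0.1, CPM, posterior mean TPM, TPM over nuclear genes, other minimums and leaving out each library, and, chosen after seeing the data, protein-coding transcripts alone. The 2-fold rule was run on simulated counts with Poisson error only, which lack the wider spread between these areas. That run checks the calculation alone. Software was Python 3.11.15 with scipy 1.17.1, numpy 2.4.6, matplotlib 3.10.9 and pandas 2.3.3.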

Additional observations from a re-analysis of the deposited data

How the results depend on the processing

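The log2 ratios of the 9 genes kept their side of 2-fold under every alternative run, with Kcnip1 and Kcnip3 past it each time. TPM over nuclear genes raised the summed levels to 39.4 TPM for the pore subunits, 141 TPM for the KChIPs and 85.2 TPM for the DPP-like genes. Protein-coding transcripts alone gave 28.6 TPM for the pore subunits and 59.1 TPM for the DPP-like genes, and put Kcnd2 at 74.0% of the pore subunits. CPM, which is not per length, gave 1.53 for KChIPs per pore subunit and 1.72 for DPP-like genes per pore subunit, and left 2 of the 9 genes in the same position. At a minimum mean of 5 TPM 6.11% of all genes were past 2-fold. With a pseudocount of 0.1, 10 genes of the 6 lists were past 2-fold, as were 15.2% of all genes. By share of reads in place of IsoPct, Kcnd1-202 held 8.36% and Dpp6-207 2.72%, and by posterior mean TPM Kcnd3-202 held 89.7%, as means of the areas. Leaving out either library left a single area and no spread. Few reads stand behind Kcnd1-202 in both areas and Kcnip1-203 in replicate 1, which limits the precision of their shares. No paired analysis was possible because there is only 1 group.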

Other observations

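Transcripts under 10% of their gene added the following values. In the M21 annotation Kcnip4-204 starts at a further first exon and encodes 233 codons. Its length was 1116 bases in the annotation used for measuring, against 2257 bases in M21. Kcnip4-204 was listed at 0 TPM in replicate 1, with an interval reaching 0.54 TPM, and at 2.64 TPM (1.53 to 3.86) in replicate 2. Dpp10-202, a form of 800 codons with another start, had 0.14 TPM (0.090 to 0.185) in replicate 1 and 0.57 TPM (0.47 to 0.66) in replicate 2. Dpp6-203 had 0.18 TPM in replicate 1 and 0.31 TPM in replicate 2. Dpp6-201 was listed at 0 TPM in both areas, with intervals reaching 0.50 and 0.49 TPM. Dpp6-206, a retained intron, had 0.02 TPM in replicate 1 and 0.52 TPM in replicate 2. The intervals of Kcnip4-204, Dpp10-202 and Dpp6-206 did not overlap between the areas, and these 3 transcripts were higher in replicate 2. Other minor transcripts were higher in replicate 1 with overlapping intervals: Kcnip4-205 had 2.04 TPM in replicate 1 and 0.87 TPM in replicate 2, Dpp10-203 had 0.71 and 0.40 TPM, and Dpp10-204 had 1.00 and 0.24 TPM. Few estimated reads stand behind the last 2: Dpp10-203 had 8.46 in replicate 1 and 5.02 in replicate 2, and Dpp10-204 had 4 and 1.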
